A study of Hakea laurina with 6 samples.

Results

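This section describes 7 contigs of *Hakea laurina* roots annotated to enzymes that make monolignols, out of 183999 contigs in the count table, of which 7819 carry an annotation and 49813 passed the minimum for testing. The 7 were named in advance by contig: 4-coumarate:CoA ligase 3 (4CL3, TRINITY_DN4721_c0_g1) and 1 (4CL1, TRINITY_DN463_c1_g1), cinnamoyl-CoA reductase 1 (CCR1, TRINITY_DN10518_c0_g1 and TRINITY_DN3282_c0_g3), hydroxycinnamoyl-CoA shikimate/quinate hydroxycinnamoyl transferase (HCT, TRINITY_DN7300_c0_g1 and TRINITY_DN1377_c0_g1) and cinnamyl alcohol dehydrogenase 9 (CAD9, TRINITY_DN2698_c0_g1). They were selected on the difference between the root types in these same libraries, so the differences of the 7 are a description and were given no test. A contig is a transcript assembled de novo from the reads, and its name is that of its closest Arabidopsis protein in the authors' annotation. Contig sequences and lengths were not used here, so a level in 1 contig is not compared with a level in another.

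RNA-Seq compared mature cluster roots (MCR), which are white and carry rootlets at full length, with the tips of lateral roots that bear clusters (TCR), with 3 libraries of each. All plants were *H. laurina* of about 3 yr grown in hydroponics at low phosphorus (P), with 6.4 μM P added at intervals and 0 μM P otherwise, so MCR and TCR share plant age and P supply. The sources do not say whether the 3 libraries of a root type came from separate plants, and the spread between them may in part be technical. Root types follow the sample titles; the deposited tissue label of each library names the other root type, and every direction below would be the opposite if those labels held. The libraries titled TCR had the higher levels of root tip genes: the PLT1 contig (TRINITY_DN29237_c0_g1, a regulator of the root stem cell niche) had 38.8, 37.2 and 5.55 CPM (counts scaled to library size) in TCR1, TCR2 and TCR3 and between 0.0608 and 0.0679 CPM in the 3 MCR libraries. The libraries titled MCR had the higher level of the acid phosphatase contig PAP10 TRINITY_DN1306_c0_g1, with 2960, 2992 and 3233 CPM against 307, 342 and 250.1 CPM in TCR. Another PAP10 contig, TRINITY_DN1270_c0_g2, went the other way, with 247, 297 and 178 CPM in TCR and 170, 66.0 and 75.7 CPM in MCR. Of 14 contigs listed for uptake and exudation in mature cluster roots, from 3 of 5 listed genes, 13 had the higher mean in MCR. Among all annotated contigs 4210 of 7819 did.

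The libraries held between 13583740 and 19119494 estimated counts. Libraries were scaled by TMM (trimmed mean of M-values) factors between 0.868 and 1.18. MCR3 stood apart from the other MCR libraries. Across the contigs tested, its Spearman correlation was 0.626 with MCR1 and 0.515 with MCR2. With TCR1, TCR2 and TCR3 it was higher, at 0.7323, 0.7295 and 0.871. The correlation of MCR1 with MCR2 was 0.791. Without MCR3 the log2 fold changes of the 7 contigs were 5.89 for 4CL1, -3.29 for 4CL3, -5.71 and -5.58 for HCT TRINITY_DN7300_c0_g1 and TRINITY_DN1377_c0_g1, -1.47 and 4.54 for CCR1 TRINITY_DN10518_c0_g1 and TRINITY_DN3282_c0_g3, and 3.74 for CAD9. The median log2 fold change (MCR over TCR) of all contigs tested was 0.57 under TMM. It moved to 0.84 under RLE scaling and to 0.37 when only library size was used. Among contigs with a count in all 6 libraries, as the 7 have, it was -0.106 under TMM, 0.185 under RLE scaling and -0.291 with library size alone. Fold changes are read against these baselines.

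Monolignols are the alcohols from which lignin, the stiff and water-repellent polymer of xylem and other thick walls, is built. Phenylalanine is deaminated and hydroxylated to p-coumarate, which 4CL activates with coenzyme A. HCT moves the acyl group to shikimate, CCR reduces the coenzyme A esters to aldehydes and CAD reduces the aldehydes to alcohols. The coenzyme A ester that 4CL makes is also the entry to flavonoids, and in Arabidopsis 4CL1 is linked mainly with lignin and 4CL3 with flavonoids.

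The contigs divided by root type: 3 were higher in MCR (4CL1, CCR1 TRINITY_DN3282_c0_g3 and CAD9) and 4 were higher in TCR (4CL3, CCR1 TRINITY_DN10518_c0_g1 and both HCT contigs). For 4CL and for CCR the contigs of the same enzyme lay on opposite sides. In all 7 the 3 libraries of one root type lay above the 3 of the other. The same held for 15420 of the 49813 contigs tested and for 4606 of the 7819 annotated contigs. All 7 also passed the thresholds used for other contigs, which their selection on this difference favours. Over all contigs tested 8.39% passed, 2.40% on the MCR side and 5.98% on the TCR side (20.1% and 15.4% with the replicate number as a block). Among the annotated contigs, to which the 7 belong, 10.2% passed on the MCR side and 31.7% on the TCR side. In the fit with the block these shares were 53.0% and 46.0%. Whether a lower level reflects fewer cells of a type or less RNA per cell cannot be told apart in these bulk roots.

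**Figure D1:**
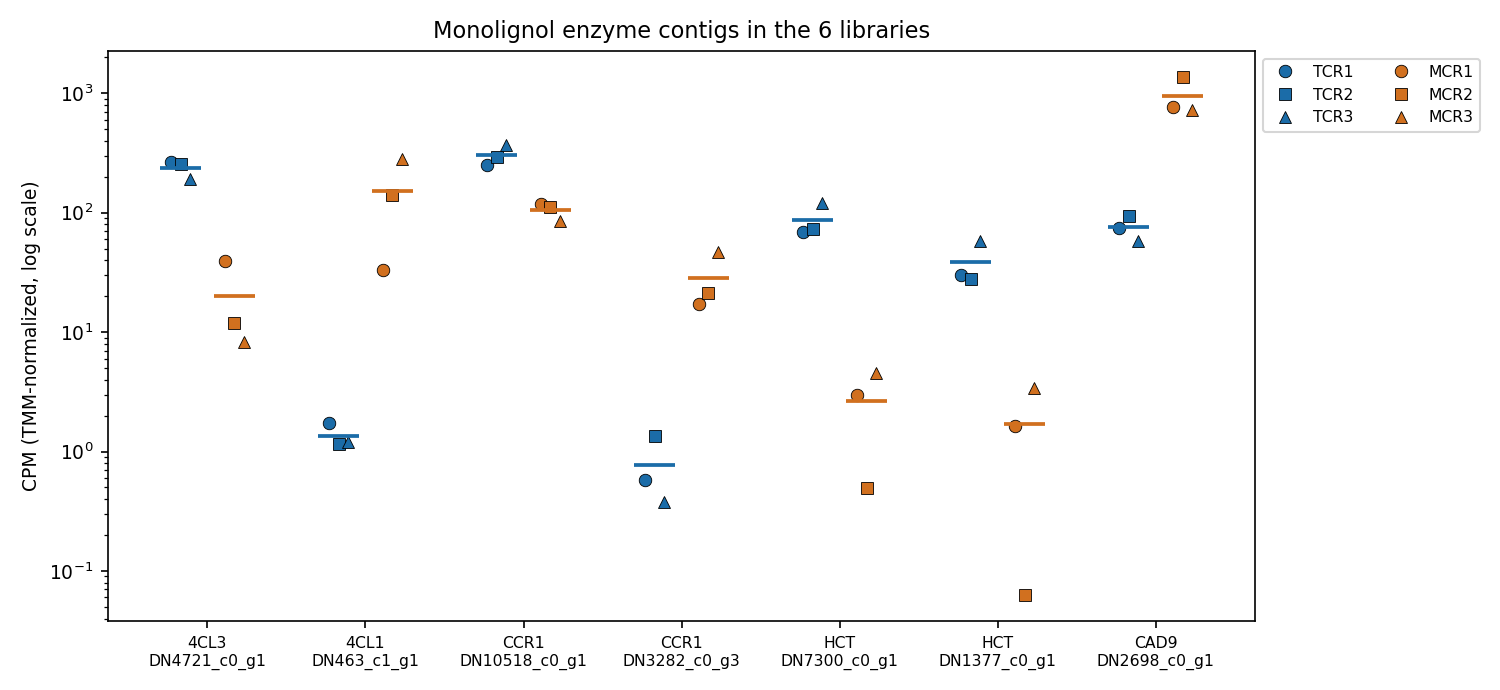
CPM of the 7 contigs on a log axis, with 1 point per library (circle, square and triangle for replicates 1, 2 and 3), TCR in blue, MCR in orange and the mean of 3 libraries as a bar. The 3 contigs higher in MCR and the 4 higher in TCR do not overlap between root types, and the points of 4CL1 and the HCT contigs spread widely in MCR.

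The 4CL contigs act at the last step that monolignols and flavonoids share. The 4CL3 contig TRINITY_DN4721_c0_g1 had 266, 257 and 191 CPM in TCR1, TCR2 and TCR3 and 39.4, 11.9 and 8.33 CPM in MCR1, MCR2 and MCR3. MCR1 was the highest of the MCR libraries and still 4.86-fold below the lowest TCR library. The means were 238 ± 40.8 CPM in TCR and 19.9 ± 16.98 CPM in MCR (SD, n = 3), a 12.0-fold difference, with a fitted log2 fold change of -3.58 ± 0.63 (SE).

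The 4CL1 contig TRINITY_DN463_c1_g1 had 1.72, 1.16 and 1.198 CPM in the TCR libraries and 33.0, 139 and 281 CPM in MCR1, MCR2 and MCR3. It was near the floor in every TCR library, with 24, 19 and 22 counts, and spanned 8.502-fold among the MCR libraries. The means were 1.36 ± 0.31 CPM in TCR and 151 ± 124 CPM in MCR (SD, n = 3), a 111-fold difference and the largest of the 7, with a log2 fold change of 6.79 ± 0.86 (SE). The MCR library with the least 4CL1, MCR1, was the one with the most 4CL3, and MCR3 held the most 4CL1 and the least 4CL3.

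The share of the 4CL pair's counts that fell on 4CL1 does not depend on scaling between libraries, although it depends on the unknown lengths of the contigs. It was 0.642% in TCR1 (95% Wilson interval 0.432 to 0.954%), 0.451% in TCR2 (0.289 to 0.703%) and 0.622% in TCR3 (0.411 to 0.940%). In MCR1 it was 45.6% (42.7 to 48.6%), in MCR2 92.1% (91.0 to 93.1%) and in MCR3 97.1% (96.6 to 97.6%). The share differed little among the TCR libraries, whereas among the MCR libraries it ran from 45.6% to 97.1% of the pair's counts. The mean log2 ratio of 4CL1 to 4CL3 was -7.43 ± 0.28 in TCR and 2.79 ± 2.74 in MCR (SD, n = 3). These intervals cover counting error only. Unlike the ratios of the CCR1 and HCT pairs, the ratio of the 4CL pair was not planned in advance.

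**Figure D2:**
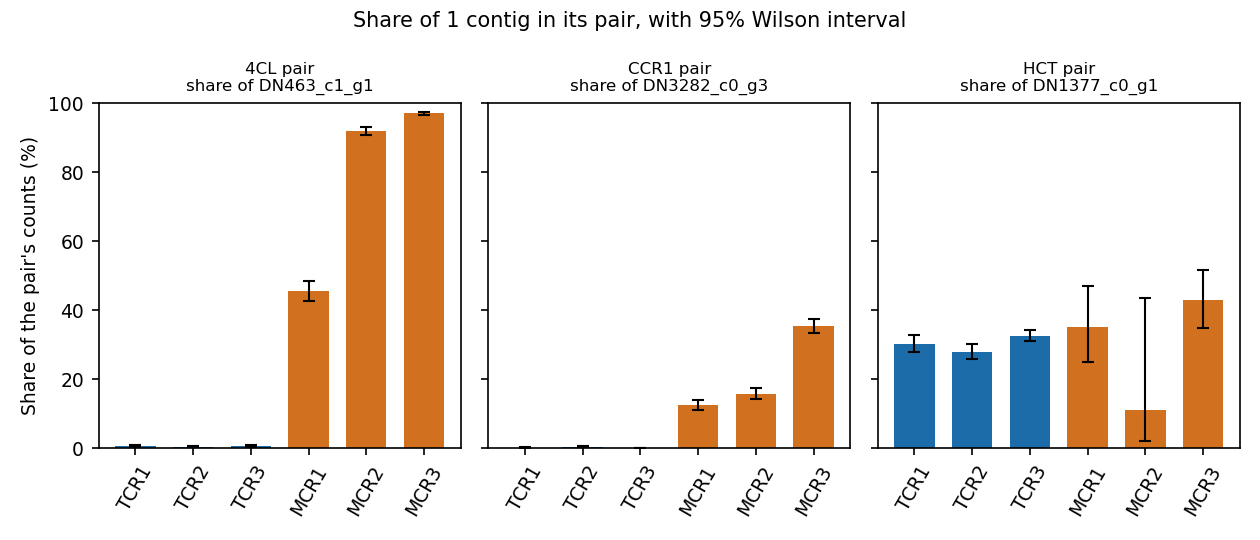
Share (%) of a pair's counts on the 4CL1 contig of the 4CL pair, TRINITY_DN3282_c0_g3 of the CCR1 pair and TRINITY_DN1377_c0_g1 of the HCT pair in each library, with 95% Wilson intervals (TCR in blue, MCR in orange). The 4CL share runs from under 1% in TCR to 97.1% in MCR3, the CCR1 share from under 1% to 35.4%, and the HCT share lies between 11.1% and 43.1% with no order by root type.

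HCT forms and later releases the shikimate ester on which the ring is hydroxylated. TRINITY_DN7300_c0_g1 had 69.3, 72.5 and 119 CPM in the TCR libraries and 2.99, 0.499 and 4.50 CPM in the MCR libraries. TCR3 was the highest of all and MCR2 the lowest, with 8 counts (95% Poisson interval 0.215 to 0.983 CPM). The means were 87.0 ± 27.9 CPM in TCR and 2.66 ± 2.02 CPM in MCR (SD, n = 3), a 32.7-fold difference and a log2 fold change of -5.03 ± 0.78 (SE).

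The other HCT contig, TRINITY_DN1377_c0_g1, had 30.1, 28.1 and 57.7 CPM in the TCR libraries and 1.63, 0.0624 and 3.40 CPM in the MCR libraries. The order of the libraries was close to that of TRINITY_DN7300_c0_g1, with TCR3 highest and MCR2 lowest on a single count (95% Poisson interval 0.00158 to 0.348 CPM). The means were 38.6 ± 16.6 CPM and 1.70 ± 1.67 CPM (SD, n = 3), a 22.7-fold difference and a log2 fold change of -4.50 ± 1.07 (SE).

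Unlike the 4CL and CCR1 pairs, both HCT contigs were higher in the same root type. The mean log2 ratio of TRINITY_DN1377_c0_g1 to TRINITY_DN7300_c0_g1 was -1.21 ± 0.16 in TCR and -1.25 ± 1.11 in MCR (SD, n = 3). The MCR ratios rest on 68, 9 and 130 counts for the pair, and a difference between root types smaller than their spread was not detectable at this depth.

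CCR makes the first step committed to monolignols, and Arabidopsis *irx4* mutants in CCR1 have collapsed xylem vessels. TRINITY_DN10518_c0_g1 had 248, 293 and 371 CPM in TCR1, TCR2 and TCR3 and 119, 112 and 85.4 CPM in the MCR libraries. The lowest TCR library was 2.09-fold above the highest MCR library, the narrowest gap among the 7. The means were 304 ± 62.0 CPM in TCR and 106 ± 17.8 CPM in MCR (SD, n = 3), a 2.88-fold difference and a log2 fold change of -1.53 ± 0.29 (SE).

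TRINITY_DN3282_c0_g3 had 0.573, 1.35 and 0.381 CPM in the TCR libraries, from 8, 22 and 7 counts, and 17.2, 21.1 and 46.7 CPM in the MCR libraries. It was low in all of TCR, and MCR3 was the highest library. The means were 0.767 ± 0.512 CPM in TCR and 28.3 ± 16.02 CPM in MCR (SD, n = 3), a 36.9-fold difference and a log2 fold change of 5.19 ± 0.70 (SE). The log2 fold change was 4.54 without MCR3 and 5.87 without TCR2, the TCR library with most of its counts.

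Of the counts of the CCR1 pair, TRINITY_DN3282_c0_g3 held 0.230% in TCR1 (95% Wilson interval 0.117 to 0.453%), 0.457% in TCR2 (0.302 to 0.692%) and 0.103% in TCR3 (0.0497 to 0.212%). It held 12.6% in MCR1 (11.2 to 14.1%), 15.8% in MCR2 (14.3 to 17.4%) and 35.4% in MCR3 (33.4 to 37.4%). TRINITY_DN10518_c0_g1 thus kept most of the pair's counts in every library, unlike 4CL3 in the 4CL pair, although this too depends on unknown contig lengths. The mean log2 ratio of TRINITY_DN3282_c0_g3 to TRINITY_DN10518_c0_g1 was -8.75 ± 1.05 in TCR and -2.02 ± 1.02 in MCR (SD, n = 3).

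CAD performs the last reduction, from aldehyde to alcohol. In Arabidopsis CAD4 and CAD5 are the main lignin enzymes of the family. The CAD9 contig TRINITY_DN2698_c0_g1 had 74.9, 92.9 and 57.8 CPM in the TCR libraries and 760, 1373 and 728 CPM in the MCR libraries. MCR2 was the highest library, while MCR1 and MCR3 were close to each other and 7.84-fold or more above every TCR library. The means were 75.2 ± 17.6 CPM and 954 ± 363 CPM (SD, n = 3), a 12.7-fold difference and a log2 fold change of 3.66 ± 0.39 (SE).

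The spread between libraries differed more among the 7 contigs in MCR than in TCR. The SD of log2 CPM (0.5 CPM added) was 0.23 to 0.57 in TCR and 0.25 to 1.56 in MCR. Over the 11539 contigs with a mean of 10 CPM or more the median SD was 0.33 in TCR and 0.46 in MCR, and 6 of the 7 lay above the latter. In MCR the spread was widest for 4CL1, TRINITY_DN1377_c0_g1, TRINITY_DN7300_c0_g1 and 4CL3, and narrowest for TRINITY_DN10518_c0_g1. A contig is called uneven here if, within the root type where it is higher, its lowest library has less than 0.1 of the mean of the other 2, and 0 of the 7 were uneven.

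Each direction held under all 16 other settings, which included the authors' deposited CPM and, as an addition made after seeing the data, the exclusion of replicate 3 of both root types. The log2 fold change of 4CL1 ran from 5.86 without replicate 3 of both root types to 7.54 without MCR1, and that of 4CL3 from -4.28 without MCR1 to -3.06 without MCR2. TRINITY_DN7300_c0_g1 ran from -5.71 without MCR3 to -4.32 without MCR2, and TRINITY_DN1377_c0_g1 from -5.58 to -3.73 under the same exclusions. TRINITY_DN10518_c0_g1 ran from -1.72 with library size alone to -1.26 without replicate 3 of both root types, and CAD9 from 3.51 with library size alone to 4.08 without MCR1. Since the contigs were selected on this difference and their groups do not overlap, an unchanged sign is no sign of stability.

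**Figure D3:**
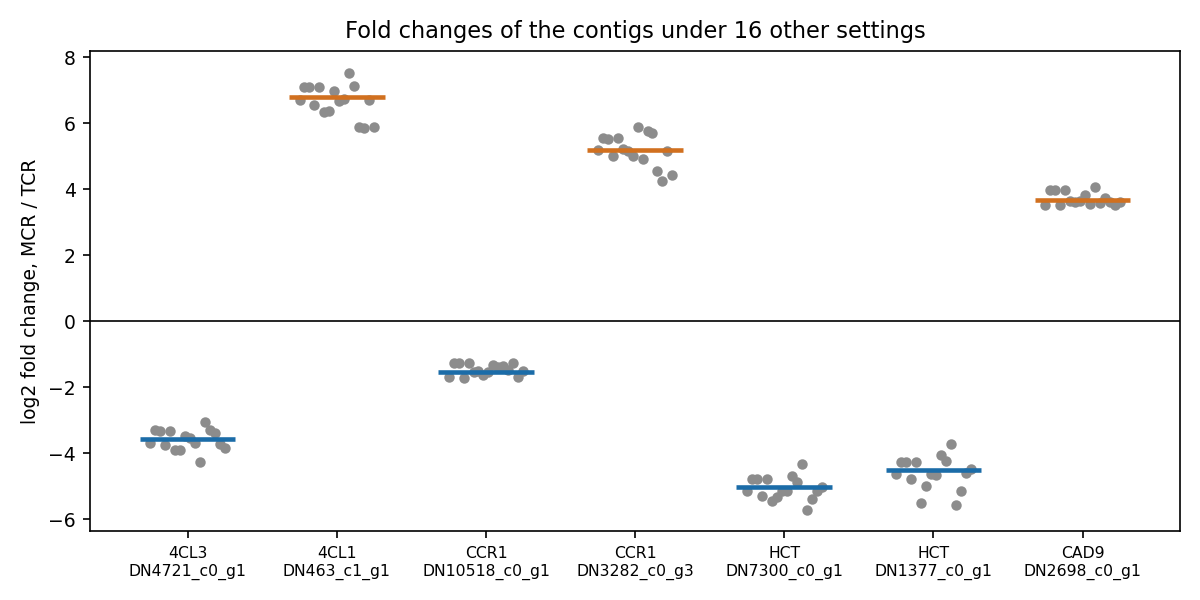
Log2 fold change (MCR over TCR) of the 7 contigs under 16 other settings (grey points) and as reported (bar, orange where higher in MCR and blue where higher in TCR). No point crosses 0, and the points of TRINITY_DN10518_c0_g1 and CAD9 lie closest together.

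Trinity gives contigs built from connected reads a shared cluster number, and reads may be split among such contigs. The number alone does not make a gene family, since cluster DN12888 holds contigs annotated to both PAL4 and flavonol synthase. TRINITY_DN10518_c0_g1 and TRINITY_DN7300_c0_g1 were alone in their clusters. In the cluster of the CCR1 contig TRINITY_DN3282_c0_g3, TRINITY_DN3282_c0_g1 is also annotated to CCR1, and it had 29.6 CPM in MCR3 and between 0 and 0.490 CPM in the other 5 libraries. Its log2 fold change of 5.67 was not past the threshold (adjusted p = 0.194 in edgeR's quasi-likelihood test, Benjamini-Hochberg adjusted over all contigs tested). Summed over both CCR1 contigs of the cluster, the level was 17.2, 21.2 and 76.3 CPM in MCR1, MCR2 and MCR3 and at most 1.84 CPM in TCR, so the CCR1 reads of this cluster were even more unequal among the MCR libraries than those of TRINITY_DN3282_c0_g3. TRINITY_DN3282_c0_g2, without annotation, was highest in MCR1 with 8.21 CPM.

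The cluster mate of 4CL1, TRINITY_DN463_c0_g1, has no annotation here and differed little between root types, with 540, 619 and 987 CPM in TCR and 564, 851 and 795 CPM in MCR (log2 fold change 0.04 ± 0.34, SE). TRINITY_DN1377_c0_g2 had 2.29, 1.9002 and 3.43 CPM in TCR and 0.746, 0 and 0.0608 CPM in MCR (adjusted p = 0.189 with edgeR's quasi-likelihood test, and 0.00158 with the replicate number as a block). It leaned the same way as the HCT contig of its cluster. The cluster mates of CAD9 did not follow it: TRINITY_DN2698_c1_g1 had 25.0 to 37.0 CPM in TCR and 9.06 to 77.2 CPM in MCR, and TRINITY_DN2698_c1_g2 had 7.40 to 19.8 and 4.14 to 31.5 CPM, with adjusted p = 0.841 and 0.957 in the same test. For 3 further contigs annotated to CAD9 in other clusters the differences were not past the threshold either, and all 3 were uneven. With the block all 3 were called, TRINITY_DN4136_c0_g1 and TRINITY_DN23055_c0_g1 higher in MCR and TRINITY_DN7169_c0_g1 higher in TCR (adjusted p = 0.0447, 0.0301 and 0.000499 with edgeR). TRINITY_DN23055_c0_g1 had 1.82 CPM in MCR3 and 0 CPM in every other library. TRINITY_DN7169_c0_g1 had 6.51, 6.68 and 0 CPM in TCR and 0.204, 0.0624 and 0.0608 CPM in MCR. TRINITY_DN4136_c0_g1 had 31.99, 46.6 and 1.796 CPM in TCR and 132, 110 and 1.28 CPM in MCR, and was thus low in replicate 3 of both root types, whereas the CAD9 contig TRINITY_DN2698_c0_g1 was not.

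The rest of the pathway was followed through a list of 33 Arabidopsis genes from phenylalanine ammonia-lyase (PAL) to CAD, of which 16 had an annotated contig. These gave 38 contigs, 31 beside the 7. The annotation covers only contigs that the authors had already selected on these libraries, so the counts are no independent evidence of direction. With edgeR's quasi-likelihood test (called at an adjusted p under 0.05 together with at least 1 log2 unit in either direction), 4 of the 31 were higher in MCR (12.9%) and 9 higher in TCR (29.0%). Over all annotated contigs the shares were 10.2% and 31.7%, so the list was close to that background. Its median log2 fold change was 1.98, against 1.904 for all annotated contigs, and 14 of the 31 were uneven, against 3163 of 7819. With the replicate number as a block 17 were higher in MCR (54.8%) and 12 in TCR (38.7%), against 53.0% and 46.0% of all annotated contigs in the same fit. Without TCR1, and likewise without TCR2, edgeR called 2 of them higher in MCR and 0 in TCR (7 and 11 at an unadjusted p under 0.05). Without MCR3 it called 10 higher in MCR and 10 in TCR, among the latter 8 of the 9.

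**Figure D4:**
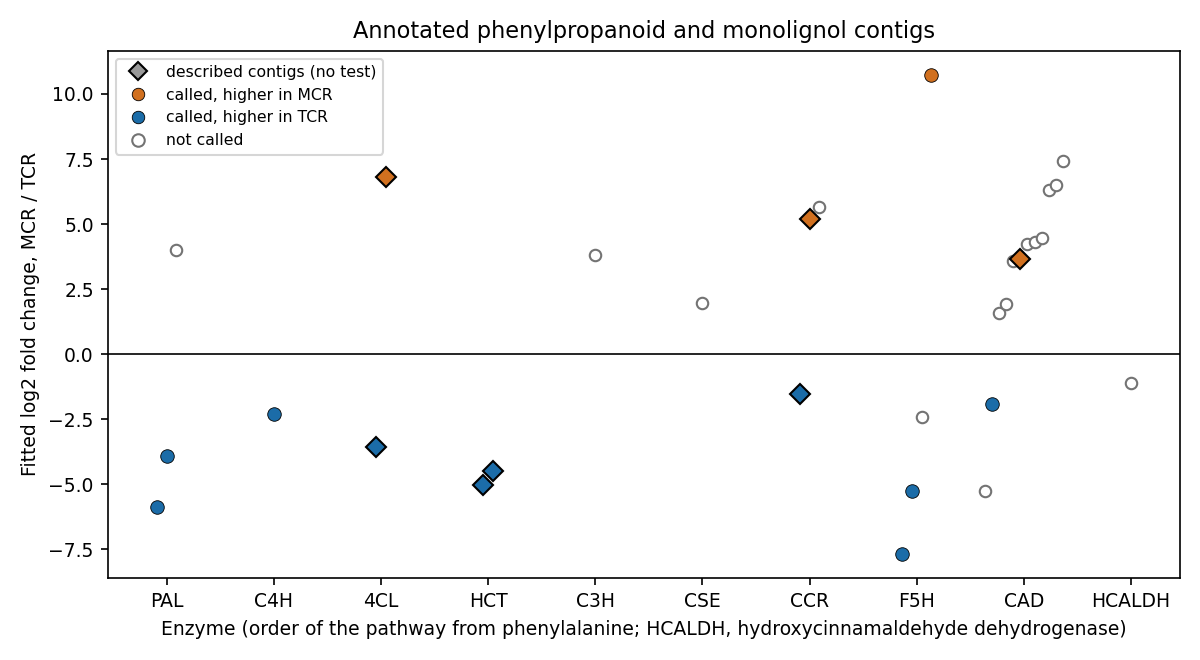
Fitted log2 fold change (MCR over TCR) of 30 annotated contigs of the phenylpropanoid and monolignol list by enzyme, in pathway order: the 7 described contigs (diamonds, no test), 7 others past the threshold (filled circles) and 16 not past it (open circles). Contigs of PAL, 4CL, CCR, F5H and CAD lie on both sides of 0, and the largest value is that of F5H1 TRINITY_DN2812_c0_g1 (10.74). For 3 open circles no count was seen in TCR, and their value depends on the prior count of the fit.

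Upstream of the 7 contigs, PAL and cinnamate 4-hydroxylase (C4H) make p-coumarate. Of 3 PAL contigs, all annotated to PAL4, 2 were higher in TCR. The remaining PAL contig, TRINITY_DN227801_c0_g1, had the higher mean in MCR and was uneven. It had 0.215, 1.04 and 0 CPM in TCR and 5.09, 15.6 and 0 CPM in MCR. Its difference was not past the threshold (adjusted p = 0.225 with edgeR) but was called higher in MCR with the replicate block (0.000222). TRINITY_DN12888_c0_g2 had 456, 486 and 401 CPM in TCR and 65.8, 4.55 and 19.8 CPM in MCR (log2 fold change -3.90 ± 0.89, SE; adjusted p = 0.0403 in edgeR's quasi-likelihood test). TRINITY_DN12888_c0_g1 had 124, 131 and 93.2 CPM in TCR and 4.75, 0.561 and 0.669 CPM in MCR (-5.87 ± 0.92; adjusted p = 0.0125 in the same test). The only C4H contig, TRINITY_DN5545_c0_g3, was lower in every MCR library, with means of 24.2 ± 7.45 CPM in TCR and 4.90 ± 3.06 CPM in MCR (adjusted p = 0.0434 with edgeR). The 2 PAL contigs higher in TCR and the C4H contig lost the call without TCR1 and without TCR2, with adjusted p between 0.0549 and 0.198. TRINITY_DN12888_c0_g2 also lost it without TCR3 (adjusted p = 0.0922) and without MCR3 (0.0548), and the C4H contig without TCR3 (0.0586) and without MCR2 (0.129), all with edgeR. With RLE size factors the C4H contig was just over the threshold.

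Between HCT and CCR, the ring is hydroxylated by C3'H with caffeoyl shikimate esterase (CSE). Their only contigs, CYP98A3 TRINITY_DN30415_c0_g1 and CSE TRINITY_DN6897_c0_g1, were uneven and not past the threshold (adjusted p = 0.206 and 0.204 with edgeR, and 0.000474 and 0.0148 with the replicate block). The CSE contig had 14.7, 15.8 and 33.3 CPM in TCR and 8.55, 73.5 and 170 CPM in MCR, so that MCR1 lay below all of TCR while MCR3, as for 4CL1, was the highest library.

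Ferulate 5-hydroxylase (F5H) adds a ring hydroxyl on the way to the most methoxylated monolignol, and 1 of its contigs showed the largest fitted difference of the list. The F5H1 contig TRINITY_DN2812_c0_g1 had 2.86, 4.97 and 3.32 CPM in TCR and 3919, 6007 and 9199 CPM in MCR. It was near the floor in every TCR library and high in every MCR library (log2 fold change 10.74 ± 0.61, SE; adjusted p = 0.00143, edgeR's quasi-likelihood test). It was called in all 13 alternatives, with a highest adjusted p of 0.0268.

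Other contigs of the same enzyme lay on the TCR side. F5H1 TRINITY_DN123861_c0_g1 had 37.7, 28.7 and 51.8 CPM in TCR and 1.02, 0.0624 and 2.01 CPM in MCR, with no overlap between root types (log2 fold change -5.25 ± 0.97, SE; adjusted p = 0.0202, edgeR). Like 4CL and CCR, F5H thus had contigs called or described on both sides. TRINITY_DN123861_c0_g1 lost the call without TCR1 (adjusted p = 0.0936), without TCR2 (0.0742), without TCR3 (0.0641) and without MCR1 (0.0948), all with edgeR. The F5H1 contig TRINITY_DN2473_c1_g1, with means of 410 ± 242 CPM in TCR and 76.8 ± 61.7 CPM in MCR, was not past the threshold (adjusted p = 0.0726, edgeR). It was called in 6 of 13 alternatives, among them the replicate block (3.2e-08).

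Among the 11 CAD contigs other than TRINITY_DN2698_c0_g1, 1 was past the threshold. The CAD4 contig TRINITY_DN4108_c1_g2, the annotation of a main lignin CAD of Arabidopsis, had 285, 314 and 546 CPM in TCR and 90.2, 90.5 and 121 CPM in MCR (log2 fold change -1.93 ± 0.35, SE; adjusted p = 0.0190, edgeR's quasi-likelihood test). It was on the side opposite to CAD9. The adjusted p was 0.0706 without TCR1, 0.0740 without TCR2, 0.144 without MCR1 and 0.137 without MCR2. Of the 11, 8 were uneven, and with the replicate number as a block 8 were called higher in MCR and 2 in TCR. Among the 8 uneven contigs, CAD1 TRINITY_DN5927_c0_g1 had 28.3, 33.8 and 2.34 CPM in TCR and 634, 595 and 55.8 CPM in MCR. Its adjusted p was 0.0747 with edgeR and 3.52e-16 with the block, and it was called in 5 of 13 alternatives. REF1 TRINITY_DN2467_c0_g1, a hydroxycinnamaldehyde dehydrogenase that takes aldehydes off the route to alcohols, had means of 161 ± 40.4 CPM in TCR and 75.7 ± 32.8 CPM in MCR (adjusted p = 0.136 with edgeR, 0.0117 with the replicate block).

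Markers of tissues in which lignin is laid down had contigs on both sides. Of 12 genes listed as xylem and secondary wall markers, 7 had an annotated contig, and of their 9 contigs 3 were higher in TCR (33.3%, against 31.7% of all annotated contigs) and 0 in MCR in edgeR's quasi-likelihood test. At an unadjusted p under 0.05 these were 6 and 2, with the replicate block 6 and 3, with DESeq2 6 and 0, and with limma-voom 4 and 0. They were CESA4 TRINITY_DN3340_c1_g1 (a cellulose synthase of secondary walls), XCP1 TRINITY_DN5687_c0_g1 (a xylem protease) and MYB83 TRINITY_DN3273_c3_g1 (a secondary wall regulator), with log2 fold changes of -3.58, -2.16 and -3.91 and adjusted p = 0.00602, 0.0173 and 0.0242. Other contigs of CESA4 (TRINITY_DN105661_c0_g1), XCP1 (TRINITY_DN604_c2_g1) and XCP2 (TRINITY_DN123049_c0_g1) had higher means in MCR, with log2 fold changes of 2.84, 9.22 and 5.42, and were not past the threshold with edgeR (adjusted p = 0.298, 0.162 and 0.158) but were with the block (0.00729, 2.95e-05 and 0.00569). All of these contigs higher in MCR were uneven. XCP1 TRINITY_DN604_c2_g1 had no count in TCR, so its fold depends on the prior count. It had 13.8 CPM in MCR2 against 0.0679 and 0.0608 CPM in MCR1 and MCR3. The CESA4 contig TRINITY_DN105661_c0_g1 and the XCP2 contig had 0 CPM in MCR3 and overlapped between root types. Without TCR1, and without TCR2, 1 of the 9 was called. The 9 contigs summed to 559 to 573 CPM in TCR and 70.1 to 155 CPM in MCR. The 5 contigs of root tip and meristem markers (5 of 10 genes) were all higher in TCR and summed to 117 to 236 CPM in TCR and 5.11 to 7.47 CPM in MCR. Of 10 endodermis markers 4 had a contig, with 2 of 5 contigs higher in TCR (CASP5), 1 higher in MCR (MYB36) and sums of 107 to 147 CPM in TCR and 33.1 to 72.6 CPM in MCR, and these 3 lost the call without TCR1 and without TCR2. The suberin list gave 1 contig, CYP86A1, with 41.0 to 118 CPM in TCR and 8.94 to 51.5 CPM in MCR and no call (adjusted p = 0.259 with edgeR, 0.0336 with the block). In the list of uptake and exudation genes of mature cluster roots, 3 of 5 genes had a contig. Of 14 contigs, 9 were higher in MCR (64.3%, against 10.2% of all annotated contigs, and 6 with limma-voom). All 9 were annotated to the acid phosphatase PAP10. No contig of the PHT1 phosphate transporters was called (adjusted p between 0.0574 and 0.266 with edgeR, and between 0.000125 and 0.00696 with the block). The sums were 747 to 857 CPM in TCR and 6167 to 10229 CPM in MCR. The part of tissue make-up in the levels of the 7 contigs was not tested.

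The annotated contigs whose pattern was most like that of each contig were found by Pearson's r across the 6 libraries on log2 CPM with 0.5 added, among 3350 others with a mean of 10 CPM or more. The 6 libraries include root type differences shared by many contigs, and r is given as a description. For 4CL1 the nearest were MYB58 TRINITY_DN9022_c0_g1, which had 9.84, 31.4 and 73.7 CPM in MCR and at most 0.109 CPM in TCR (r = 0.998), and CYP82C4 TRINITY_DN3229_c0_g1 (r = 0.997). Both had the same order of MCR libraries as 4CL1. For 4CL3 they were a calcium-dependent lipid-binding family contig, TRINITY_DN904_c1_g1, and WAT1 TRINITY_DN5954_c0_g2 (r = 0.999 for both).

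For TRINITY_DN7300_c0_g1 the nearest was SKS17 TRINITY_DN5554_c0_g1, with 167, 166 and 243 CPM in TCR and 8.48, 1.93 and 11.1 CPM in MCR (r = 0.9995). The chaperonin CPN60A TRINITY_DN3262_c0_g1 was second for both HCT contigs (r = 0.999 and 0.998), and SDE5 TRINITY_DN6013_c0_g1 was first for TRINITY_DN1377_c0_g1 (r = 0.998). The CCR1 contig TRINITY_DN10518_c0_g1 had the lowest likeness, with WAK2 TRINITY_DN1429_c0_g1 and OBP1 TRINITY_DN639_c3_g1 at r = 0.991. TRINITY_DN3282_c0_g3 was nearest to OFP1 TRINITY_DN2263_c0_g1 (r = 0.997), which had 19.9, 24.0 and 45.6 CPM in MCR, and to the lectin kinase contig TRINITY_DN6041_c0_g2 (r = 0.996). CAD9 was nearest to a DUF1644 contig, TRINITY_DN1488_c0_g2 (r = 0.998), and to the U-box kinase contig TRINITY_DN112666_c0_g2 (r = 0.996). No contig was nearest to members of both sides, which the opposite directions of the chosen contigs fix in advance.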

How the data were processed

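For each contig and library the authors deposited an estimated count, not normalized, from reads trimmed with Trimmomatic 0.39, assembled with Trinity and quantified with Salmon 1.9.0 (stranded poly(A) libraries); how transcripts were summed to contigs is not given in the sources used here. A second table holds CPM that the authors had normalized across libraries, with 0.01 CPM added, for annotated contigs selected by the authors with edgeR 4.0.14. Its fold changes, p-values and q-values were not used.

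Counts were rounded and fitted with edgeR 4.0.16 in R 4.3.3 (TMM, quasi-likelihood test, Benjamini-Hochberg over 49813 contigs with a mean of 0.4 CPM or more in at least 1 root type). The call thresholds were 0.05 for the adjusted p and 1 log2 unit in either direction. The SE of a fold change is its size over the square root of F. With 3 libraries against 3, an exact permutation test cannot go below p = 0.1. Poisson and Wilson intervals at 95% used scipy 1.17.1. The fit was tested on simulated data.

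Libraries with the same replicate number deviated together (r = 0.336, 0.363 and 0.477 over 14706 contigs), so a fit with the number as a block was made. TCR2 with MCR1 (r = 0.316) and TCR1 with MCR2 (0.185) were also above 0, while pairs of replicate 3 with another number were below 0, so the numbers mainly separate replicate 3. The pairing comes from the sample titles. Alternatives were other filters, RLE size factors, library size alone, DESeq2 1.42.0, limma-voom (limma 3.58.1) and each library left out. Named are the 7 contigs, the 2 nearest patterns per contig, cluster mates and list markers. From the pathway list, the contig with the highest mean CPM per enzyme and called contigs with a mean of 10 CPM or more are named. The CAD9 contigs of other clusters, PAL4 TRINITY_DN227801_c0_g1, CAD1 TRINITY_DN5927_c0_g1 and F5H1 TRINITY_DN2473_c1_g1 were named after their values were seen. So were the CESA4, XCP1 and XCP2 contigs higher in MCR and the flavonoid and shikimate contigs. Contigs of 1 enzyme of the pathway list enter its counts and are otherwise not reported here. The members and lists were chosen with earlier results of these data known.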

Additional observations from a re-analysis of the deposited data

How the results depend on the processing

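The number of contigs called over the whole table was 4177, against 9240 with no CPM minimum, 9293 with DESeq2, 17704 with the replicate block, 15868 without replicate 3 of both root types (chosen after seeing the data) and 535 to 7460 with each library left out in turn. Contigs higher in MCR made up 28.6% of these calls, 39.8% with RLE size factors, 19.8% with library size alone, 45.3% with DESeq2, 50.8% without replicate 3 of both root types, 53.7% with no CPM minimum and 56.5% with the replicate block. Of the 31 other pathway contigs, 4 were called higher in MCR, against 19 with no CPM minimum, 8 with DESeq2, 17 with the replicate block, 13 without replicate 3 of both root types and 2 to 10 with each library left out. The 9 called higher in TCR became 0 to 10 with each library left out, with 0 without TCR1 and without TCR2. The block changed the sign of none of the 7 fold changes. The CCR1 pair difference in log2 ratio (MCR minus TCR) was 6.72, and 5.60 without replicate 3 of both root types; with each library left out it was 6.15 to 7.23, that of the 4CL pair (10.22) 9.07 to 11.73 and that of the HCT pair (-0.05) -0.48 to 0.58. For TRINITY_DN3282_c0_g3 the fold change moved by more than the replicate SD without TCR2 (5.87), without replicate 3 of both root types (4.26) and as a difference of mean log2 CPM (4.44). A fit without a library rests on fewer samples, and counts of 1 to 74 limit the low values of 4CL1, TRINITY_DN3282_c0_g3 and the HCT contigs. The causes of these shifts were not tested.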

Other observations

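The flavonoid branch, which starts from the same coenzyme A ester as HCT, lay on the TCR side throughout. Of 15 annotated contigs of 7 genes, 10 were higher in TCR and 0 in MCR in edgeR's quasi-likelihood test (14 and 0 at an unadjusted p under 0.05, 13 and 0 with DESeq2, 12 and 0 with limma-voom, 15 and 0 with the replicate block). The background over all annotated contigs was 31.7% on the TCR side and 10.2% on the MCR side, or 46.0% and 53.0% with the block. Without TCR1 1 was called, and without TCR2 2 were. The median log2 fold change was -3.80. All 15 had no overlap between root types, against 4606 of 7819 annotated contigs, in a table the authors had selected on these libraries. The contigs summed to 7442 to 8403 CPM in TCR and to 1313, 188 and 424 CPM in MCR1, MCR2 and MCR3, so MCR1 was highest of the MCR libraries, as it was for 4CL3. Chalcone synthase, the first enzyme of the branch, had its contig with the most counts, TRINITY_DN597_c0_g2, at 2296, 2368 and 2090 CPM in TCR and 430, 30.1 and 81.6 CPM in MCR (adjusted p = 0.0583 with edgeR, 9.09e-14 with the replicate block), and the anthocyanidin synthase contig TRINITY_DN8238_c0_g1 had 1314, 1288 and 670 CPM in TCR and 112, 32.1 and 90.0 CPM in MCR (adjusted p = 0.0105, edgeR).

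Of the shikimate route that supplies phenylalanine, 6 of 20 listed genes had annotated contigs, 7 in number, of which 2 were higher in TCR and 0 in MCR with edgeR (4 and 0 at an unadjusted p under 0.05, 3 and 0 with DESeq2 and with limma-voom, 4 and 3 with the replicate block). The 2 of 7 (28.6%) were close to the 31.7% of all annotated contigs. Without TCR1, and without TCR2, none was called. DHS2 TRINITY_DN9792_c0_g2, which opens the route, had 333, 312 and 305 CPM in TCR and 62.7, 22.5 and 77.3 CPM in MCR (adjusted p = 0.0201, edgeR). The arogenate dehydratase contig TRINITY_DN34598_c0_g1 had 42.6, 39.7 and 20.0 CPM in TCR and 8.14, 4.30 and 9.85 CPM in MCR (adjusted p = 0.0314, edgeR). The 3 contigs with higher means in MCR were all uneven and between 0.447 and 3.64 CPM on average.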
